A study of Rattus norvegicus with 8 samples.

Results

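The 10 genes described here mark macrophages and other leukocytes: Cd68 (ENSRNOG00000037563), C1qa (ENSRNOG00000012807), C1qb (ENSRNOG00000012804), Csf1r (ENSRNOG00000018659), Cd14 (ENSRNOG00000017819), Cd163 (ENSRNOG00000010253), Aif1 (ENSRNOG00000000853), Ptprc (ENSRNOG00000000655), Lgals3 (ENSRNOG00000010645) and Gpnmb (ENSRNOG00000008816). They were chosen by identifier as genes known to mark these cells, and with earlier results of these data known. They are 10 of the 32285 Ensembl gene identifiers in the deposited table. All 10 passed the filter on low counts, which kept 16313 genes. Total RNA was sequenced from the sinoatrial node, where the heartbeat starts, in the inbred Dahl/Salt Sensitive Rat (SS/JrHsdMcwiCrl). The Control group (n = 4 libraries) ate a diet with 0.4% NaCl and the HFpEF group (n = 4), a model of heart failure with preserved ejection fraction, ate one with 8% NaCl, both for 11 weeks. Both groups carry the salt-sensitive background, and salt intake is what sets the groups apart, so salt, raised blood pressure and heart failure cannot be told apart in any difference. The labels give neither the number of animals behind a library nor their age or sex. Each p-value therefore reflects variation among libraries, which may be technical.

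Macrophages live in the healthy heart, conduction tissue included, and clear dead cells, debris and spent organelles. They depend on CSF1 receptor signalling, take up material through scavenger receptors, digest it in lysosomes and secrete complement C1q, which tags cells and debris for clearance. In an injured or overloaded heart the resident cells are joined by others derived from blood monocytes, and macrophages loaded with debris or lipid are known to make much Gpnmb and Lgals3.

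In HFpEF, 3 of the 10 marker genes rose: Gpnmb by 3.39-fold, Cd68 by 2.51-fold and Lgals3 by 1.71-fold (edgeR quasi-likelihood test, Benjamini-Hochberg adjusted over all 16313 tested genes, threshold 0.05). Among all tested genes 1.54% rose by the same test. None of the 10 fell: 0 were lower by edgeR, by DESeq2 or by limma-voom, where 0.398% of all tested genes fell by edgeR. The fitted change was above 0 in 10 of the 10 genes and in 49.1% of all tested genes. Of the 7 others, Ptprc, Aif1, C1qa, C1qb and Cd163 had fitted folds between 2.04 and 2.21 without passing the test, Cd14 one of 1.45 and Csf1r one of 1.13. An unadjusted edgeR p under 0.05 with a higher level in HFpEF was reached by 9 of the 10, against 11.2% of all tested genes. The median log2 fold change of the 10 genes was 1.06, and that of all tested genes -0.0041. Every HFpEF library exceeded every Control library in 6 of the 10 genes (Cd68, Cd14, Aif1, Ptprc, Lgals3 and Gpnmb), which held for 6.74% of all tested genes. The 10 genes were chosen with earlier results of these data known, so these shares describe the genes and test nothing. In bulk tissue, more cells of a type and more RNA per cell cannot be told apart, and this applies to every difference given here.

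**Figure D1:**
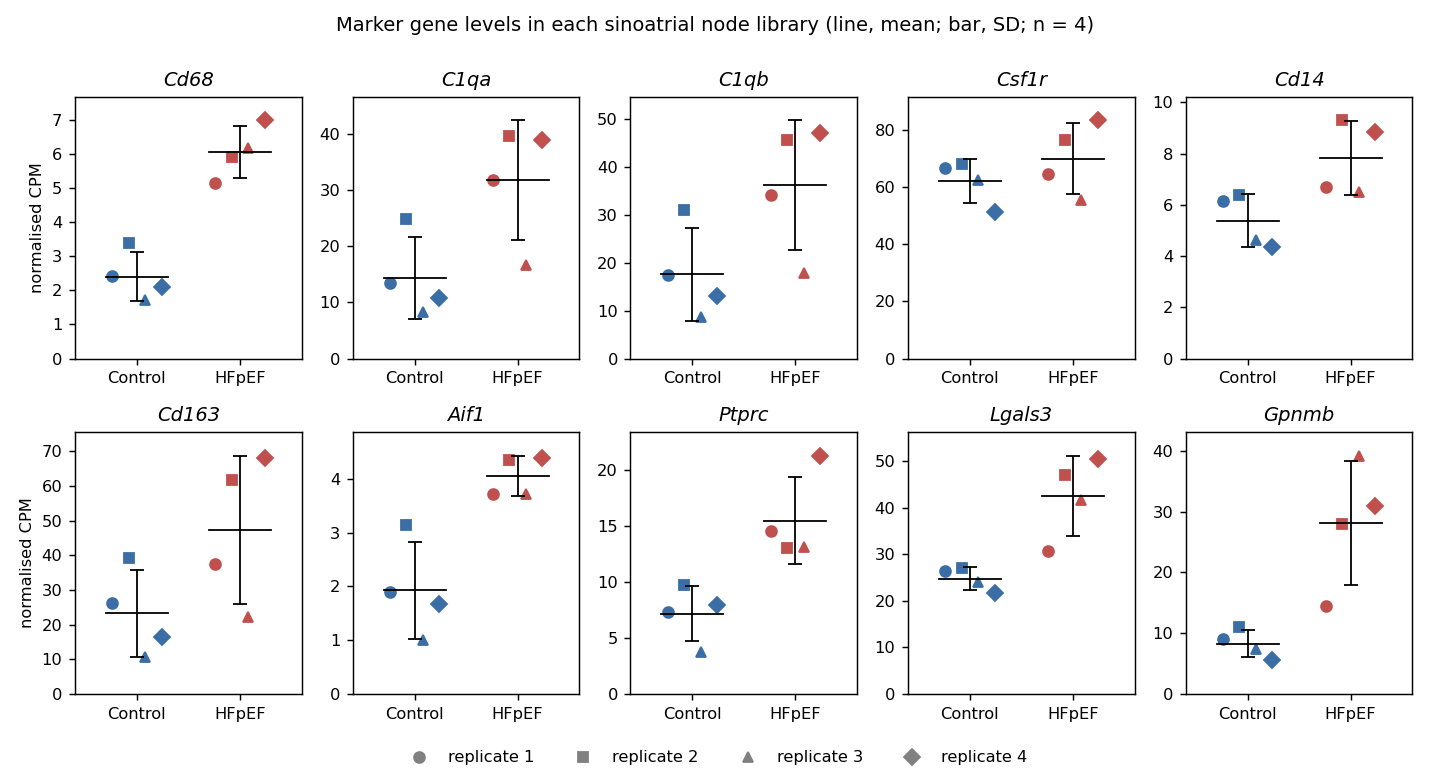
Normalised CPM (vertical axis, linear from 0) of the 10 marker genes in the 4 Control (blue) and 4 HFpEF (red) libraries, with the replicate number as the symbol, the group mean as a line and the SD as a bar. The groups are apart in Cd68, Cd14, Aif1, Ptprc, Lgals3 and Gpnmb and overlap in C1qa, C1qb, Csf1r and Cd163.

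Levels are normalised CPM, that is a gene's count scaled to a common library total after TMM scaling. Since they are not divided by transcript length, they compare libraries for 1 gene and not genes with one another. Library totals ran from 31774820 to 38889395 expected counts, and the 10 genes together took between 0.0130% and 0.0378% of them. The fewest counts were those of Aif1, with 38 to 161 per library, and the most those of Csf1r, with 1834 to 3051. A count of 0, which allows up to 3 counts or 0.0771 to 0.0944 CPM, was met by none of the 10 genes in any library. Marker genes of the pacemaker, heart muscle, other leukocyte and other cell types were not examined, because no names for them could be matched to the identifiers in the table. The labelled tissue was therefore not checked against its own markers.

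Cd68 encodes a heavily glycosylated membrane protein of late endosomes and lysosomes and is the standard histological marker of macrophages. Its level was 2.44, 3.38, 1.73 and 2.09 CPM in Control replicates 1 to 4 and 5.15, 5.91, 6.17 and 6.99 CPM in HFpEF replicates 1 to 4. The groups did not overlap, with Control replicate 2 and HFpEF replicate 1 nearest to each other. The means were 2.41 ± 0.711 CPM in Control and 6.06 ± 0.759 CPM in HFpEF (SD, n = 4 each). The fitted log2 fold change was 1.33 (standard error, SE, 0.20; edgeR adjusted p = 0.0235). The Cd68 call was lost without Control replicate 1 (edgeR adjusted p = 0.0966), Control replicate 3 (0.0696) or Control replicate 4 (0.0521), where the log2 fold change was 1.33, 1.20 and 1.27.

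Gpnmb encodes a transmembrane glycoprotein of endosomes and lysosomes that macrophages induce when their lysosomes are loaded. It had the largest fitted change of the 10 genes. Control replicates 1 to 4 held 9.04, 11.0, 7.47 and 5.62 CPM of Gpnmb, and HFpEF replicates 1 to 4 held 14.4, 27.9, 39.2 and 30.9 CPM. All HFpEF libraries were higher than all Control libraries, with HFpEF replicate 1 far below the other 3. The means were 8.27 ± 2.27 CPM in Control and 28.1 ± 10.3 CPM in HFpEF (SD, n = 4 each). The fitted log2 fold change was 1.76 (SE 0.30; edgeR adjusted p = 0.0314). Without Control replicates 1, 2, 3 and 4 in turn the edgeR adjusted p for Gpnmb was 0.108, 0.0584, 0.105 and 0.0605, and without HFpEF replicates 2, 3 and 4 it was 0.0553, 0.0570 and 0.0522, so each of these 7 ended the call, as did limma-voom (adjusted p = 0.0534). Its log2 fold change stayed between 1.56 and 1.98 when any 1 library was left out.

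Lgals3 encodes galectin-3, a sugar-binding lectin secreted by activated macrophages that is also made by other cell types and is known as a marker of cardiac fibrosis. Its level was 26.4, 27.0, 24.1 and 21.7 CPM in Control replicates 1 to 4 and 30.7, 47.0, 41.7 and 50.6 CPM in HFpEF replicates 1 to 4. The Control libraries lay close together, and HFpEF replicate 1 came nearest to them, as it did for Gpnmb. Lgals3 went from 24.8 ± 2.41 to 42.5 ± 8.67 CPM (SD, n = 4 each). Its log2 fold change was 0.78 (SE 0.15; edgeR adjusted p = 0.0391). The Lgals3 call was lost without Control replicates 1, 2, 3 and 4 in turn (edgeR adjusted p = 0.120, 0.0855, 0.113 and 0.0772), without HFpEF replicates 2, 3 and 4 (0.0762, 0.0687 and 0.0582) and by limma-voom (0.0526). When any 1 library was left out, its log2 fold change stayed between 0.68 and 0.90.

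To show the sequence in front of genes that rose, the 250 bases upstream of the RefSeq start of Cd68 and Gpnmb are given with those of C1qa and C1qb, which lie side by side with C1qc in the RefSeq gene order on chromosome 5 and whose levels tracked each other. All are GRCr8 reference sequence, 5′ to 3′ toward the gene, and not sequence of this strain. The table held a promoter for 8 of the 10 genes; Lgals3 and Aif1 were not matched. Cd68 is from chr10:54882442-54882691 on the minus strand, Gpnmb from chr4:79340878-79341127 on the plus strand, C1qa from chr5:154419934-154420183 on the minus strand and C1qb from chr5:154407828-154408077 on the minus strand. Capitals mark matches to 1 of 3 motifs searched on both strands: GAGGAAG (the core of sites for PU.1, the factor that directs the macrophage lineage), TGANTCA (AP-1) and CACGTG (the E-box bound by the lysosomal regulators TFEB and MITF).
Cd68: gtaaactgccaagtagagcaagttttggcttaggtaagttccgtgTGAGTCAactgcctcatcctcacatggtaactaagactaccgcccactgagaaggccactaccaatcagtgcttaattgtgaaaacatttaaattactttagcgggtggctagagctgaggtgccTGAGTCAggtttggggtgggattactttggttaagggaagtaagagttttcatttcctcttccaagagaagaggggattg
Gpnmb: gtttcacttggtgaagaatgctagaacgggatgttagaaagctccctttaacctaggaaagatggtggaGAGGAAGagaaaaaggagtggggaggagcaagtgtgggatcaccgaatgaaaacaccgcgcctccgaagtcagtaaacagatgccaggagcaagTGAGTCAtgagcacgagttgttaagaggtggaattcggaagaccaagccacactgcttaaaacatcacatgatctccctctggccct
C1qa: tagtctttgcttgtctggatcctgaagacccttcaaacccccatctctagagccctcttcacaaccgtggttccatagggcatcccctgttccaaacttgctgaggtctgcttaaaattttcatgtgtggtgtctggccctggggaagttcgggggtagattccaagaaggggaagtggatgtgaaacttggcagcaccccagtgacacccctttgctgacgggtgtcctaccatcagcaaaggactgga
C1qb: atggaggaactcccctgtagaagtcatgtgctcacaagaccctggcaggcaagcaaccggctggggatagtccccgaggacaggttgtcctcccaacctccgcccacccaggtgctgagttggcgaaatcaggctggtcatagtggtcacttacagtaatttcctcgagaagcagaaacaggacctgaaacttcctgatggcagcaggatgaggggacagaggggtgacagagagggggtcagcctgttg
TGANTCA was found in 2 of the 8 promoters. It began 205 and 80 bases before the start of Cd68 and 87 bases before that of Gpnmb, and 6.34% of all 33469 promoter windows of this length held it. GAGGAAG was found in 3 of the 8 (Csf1r, Cd14 and Gpnmb), where it began 181 bases before the start of Gpnmb, and 10.2% of all windows held it. CACGTG was found in 0 of the 8 and in 5.59% of all windows. The motifs searched did not overlap one another in these windows. A match is a run of letters and not a measured site, and no match says only that these letters are absent from the window. Other forms of the sites that these factors bind were not searched, so windows without capitals may hold them.

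Ptprc encodes CD45, the membrane tyrosine phosphatase carried by nearly all leukocytes, so it is the broadest marker among the 10 genes. The Ptprc level was 7.31, 9.72, 3.77 and 7.96 CPM in Control replicates 1 to 4 and 14.6, 13.1, 13.1 and 21.3 CPM in HFpEF replicates 1 to 4. The groups did not overlap, with Control replicate 3 lowest and HFpEF replicate 4 highest. Means of 7.19 ± 2.50 and 15.5 ± 3.92 CPM (SD, n = 4 each) gave a fitted log2 fold change of 1.11 (SE 0.27), which missed the threshold (edgeR adjusted p = 0.0757) and passed it with DESeq2 (adjusted p = 0.00202). The expected counts of Cd14 were whole in no library, and those of Ptprc were whole only in HFpEF replicates 3 and 4. Where counts are not whole, RSEM shared out some reads between the gene and other genes. The expected counts of the other 8 genes were whole in every library.

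Aif1 encodes IBA1, a calcium- and actin-binding protein of macrophages and microglia that takes part in membrane ruffling. It was measured at 1.89, 3.14, 0.996 and 1.67 CPM in Control replicates 1 to 4 and at 3.73, 4.36, 3.72 and 4.40 CPM in HFpEF replicates 1 to 4. The HFpEF libraries were nearly level, within 1.18-fold of each other, and the Control libraries spread over 3.16-fold. The log2 fold change of Aif1 was 1.07 (SE 0.29; edgeR adjusted p = 0.0974; DESeq2 adjusted p = 0.0102). DESeq2 called 5 of the 10 genes higher, adding Ptprc and Aif1, where it called 4.85% of all genes it gave an adjusted p.

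C1qa and C1qb encode the A and B chains of complement C1q, the recognition protein of the classical pathway, which tissue macrophages secrete. C1qa stood at 13.6, 24.8, 8.31 and 10.8 CPM in Control replicates 1 to 4 and at 31.9, 39.7, 16.7 and 39.0 CPM in HFpEF replicates 1 to 4. For C1qb the levels were 17.5, 30.9, 8.67 and 13.1 CPM in Control and 34.2, 45.6, 17.8 and 47.0 CPM in HFpEF, in the same order of replicates. In both genes 3 HFpEF libraries lay above all of Control, while HFpEF replicate 3 lay below Control replicate 2. C1qa went from 14.4 ± 7.30 to 31.8 ± 10.7 CPM and C1qb from 17.5 ± 9.62 to 36.1 ± 13.5 CPM (SD, n = 4 each). The log2 fold changes were 1.15 (95% interval 0.32 to 1.97) and 1.04 (0.12 to 1.96), intervals without adjustment over genes, and neither passed the test (edgeR adjusted p = 0.140 and 0.206). No library left out brought either gene past the threshold: for C1qa the edgeR adjusted p ran from 0.0828, without Control replicate 2, to 0.298, and for C1qb from 0.124 to 0.368.

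Cd163 encodes the scavenger receptor for haemoglobin bound to haptoglobin, known from resident and perivascular macrophages. Its level was 26.4, 39.3, 10.7 and 16.4 CPM in Control replicates 1 to 4 and 37.3, 61.7, 22.1 and 68.1 CPM in HFpEF replicates 1 to 4. Only HFpEF replicates 2 and 4 exceeded the highest Control library, and HFpEF replicate 3 lay below Control replicate 1. Cd163 spread the most within Control of the 10 genes, by 3.66-fold from lowest to highest library, and by 3.08-fold within HFpEF. With means of 23.2 ± 12.5 and 47.3 ± 21.4 CPM (SD, n = 4 each), its log2 fold change of 1.03 (95% interval 0.03 to 2.03, unadjusted) did not pass the test (edgeR adjusted p = 0.244).

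Cd14 encodes a membrane-anchored co-receptor that hands bacterial lipopolysaccharide to TLR4. It was at 6.14, 6.39, 4.64 and 4.37 CPM in Control replicates 1 to 4 and at 6.69, 9.29, 6.51 and 8.83 CPM in HFpEF replicates 1 to 4. The groups did not overlap, but HFpEF replicates 1 and 3 lay close to Control replicate 2. The log2 fold change of Cd14 was 0.54 (SE 0.17; edgeR adjusted p = 0.140).

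Csf1r encodes the receptor for CSF1 and IL-34, the growth factors on which macrophages depend. The Csf1r level was 66.6, 68.2, 62.4 and 51.1 CPM in Control replicates 1 to 4 and 64.6, 76.3, 55.5 and 83.4 CPM in HFpEF replicates 1 to 4. The groups overlapped, and 2 HFpEF libraries lay within the range of Control. Its log2 fold change was 0.17, with a 95% interval of -0.14 to 0.48, or 0.909-fold to 1.40-fold (edgeR adjusted p = 0.523). It had the smallest fitted change of the 10 genes and the smallest SE, 0.14.

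**Figure D2:**
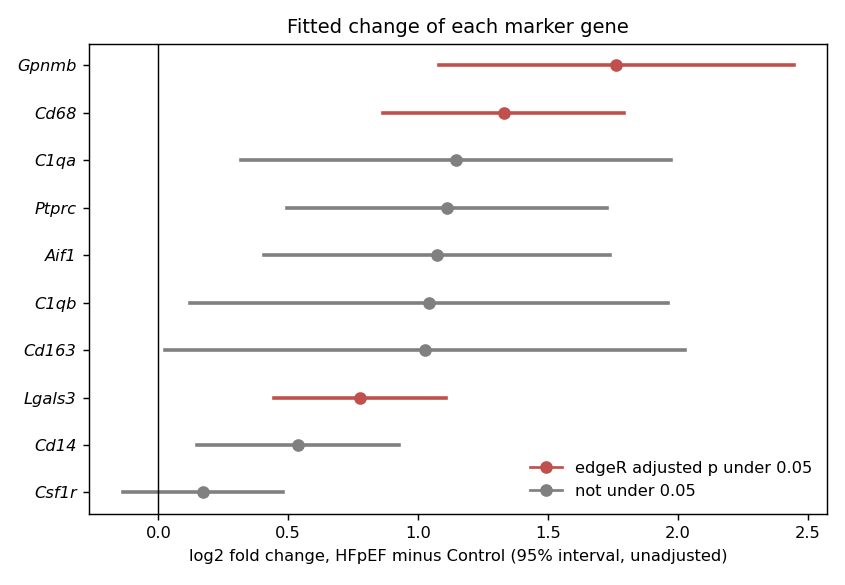
Log2 fold change of each marker gene (HFpEF minus Control, horizontal axis) from the edgeR fit, as a point with its 95% interval before adjustment over genes; red marks the genes with an adjusted p under 0.05. Gpnmb is highest at 1.76 and Csf1r lowest at 0.17, and the intervals of C1qa, C1qb and Cd163 are the widest.

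The spread between libraries of the same group differed among the marker genes. The biological coefficient of variation, the spread of a gene between replicates beyond counting error as edgeR estimates it, was 0.426 for Cd163, 0.394 for C1qb and 0.356 for C1qa, higher than in 96.0%, 95.0% and 93.5% of all tested genes. It was 0.207 for Cd68, 0.153 for Lgals3 and 0.147 for Csf1r, and its median was 0.281 over the 10 genes and 0.130 over all tested genes. C1qa, C1qb and Cd163 missed the threshold at fitted folds above that of Lgals3, which passed it with a smaller spread. Each of these 3 genes had at least 317 counts in every library.

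The marker genes moved together across libraries, but not as 1 block. Control replicate 2 was the highest Control library in 10 of the 10 genes, and Control replicate 3 the lowest in 6. HFpEF replicate 4 was the highest HFpEF library in 7. The share of all tested genes that rank the libraries in these ways was not computed. HFpEF replicate 3 had the lowest level of the HFpEF libraries in 6 genes (C1qa, C1qb, Csf1r, Cd14, Cd163 and Aif1, the last at 3.72 CPM beside 3.73 CPM in HFpEF replicate 1) and the highest level of Gpnmb. Relative to the Control mean, on the log2 scale, HFpEF replicate 3 stood at 2.29 for Gpnmb, 1.40 for Cd68 and 0.76 for Lgals3. It stood at 0.34 for C1qa, 0.18 for C1qb and 0.10 for Cd163. The other marker genes stood at 1.07 for Aif1, 0.95 for Ptprc, 0.29 for Cd14 and -0.15 for Csf1r in that library. Per count of Cd163 that library held 1.77 counts of Gpnmb, against 0.387 to 0.454 in the other HFpEF libraries and 0.279 to 0.695 in Control, a ratio chosen after its values were seen and not tested.

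**Figure D3:**
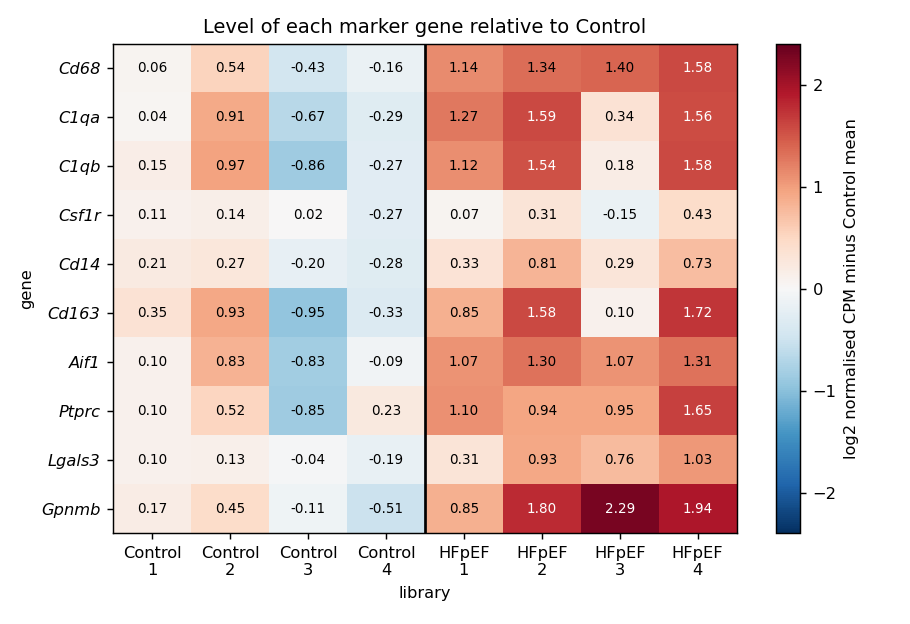
Level of each marker gene (rows) in each library (columns, Control left of the line and HFpEF right of it) as log2 normalised CPM minus the mean of the Control libraries, printed in each cell and coloured from blue (lower) to red (higher). Control replicates 1 and 2 are above the Control mean in 10 of the 10 genes. HFpEF replicate 3 is high in Gpnmb and Cd68 and near the Control mean in C1qb, Cd163 and Csf1r.

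Summed over the 10 genes, the level was 177, 224, 133 and 135 CPM in Control replicates 1 to 4 and 243, 331, 223 and 360 CPM in HFpEF replicates 1 to 4. HFpEF replicate 3, the lowest of its group, was about level with Control replicate 2, the highest of its own. The group means were 167 ± 43.0 and 289 ± 66.8 CPM (SD, n = 4 each), a ratio of 1.73, given with no test. This sum leans on the genes with the most counts: Csf1r alone made up 30.5% to 47.0% of the counts of the 10 genes in Control and 23.1% to 26.5% in HFpEF. The share of Gpnmb was 4.17% to 5.62% in Control and 5.94% to 17.6% in HFpEF.

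The marker genes were compared with one another through 6 ratios of expected counts taken within each library, which do not depend on how libraries are scaled. The ratios were chosen with earlier results of these data known, so their p-values describe the ratios and are no independent test. There were 20.2 to 36.1 counts of Csf1r per count of Cd68 in the Control libraries and 8.99 to 12.9 in the HFpEF libraries, with no overlap. On the log2 scale this ratio was lower in HFpEF by 1.20, from 4.72 ± 0.35 to 3.52 ± 0.24 (SD, n = 4 each). Its exact two-sided permutation p of 0.0286 is the smallest that 4 libraries against 4 allow. After adjustment over the 6 ratios it did not pass (adjusted p = 0.0857). A ratio at this smallest p can pass the adjustment only if most of the 6 ratios reach it too. Missing the threshold therefore does not decide whether this ratio changed. Lgals3 per Cd68 was 7.98 to 13.9 in Control and 5.96 to 7.96 in HFpEF, with the nearest libraries of the groups almost touching. Its log2 difference was -0.61, with the same exact permutation p and adjusted p. Cd68, with a fitted log2 fold change of 1.33, is the denominator of both ratios, so they are not independent of each other.

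The other 4 ratios overlapped between the groups. C1qb per C1qa lay between 1.04 and 1.29 in Control and between 1.06 and 1.20 in HFpEF, a log2 difference of -0.089 (exact permutation p = 0.286, adjusted p = 0.429), while each of the chains varied over 4.78-fold (C1qa) and 5.42-fold (C1qb) across the 8 libraries. Gpnmb per Cd68 was 2.69 to 4.32 in Control and 2.80 to 6.34 in HFpEF, a log2 difference of 0.35 (exact permutation p = 0.229, adjusted p = 0.429). Ptprc per Cd68 differed by -0.21 (adjusted p = 0.446) and Cd163 per Cd68 by -0.31 (adjusted p = 0.514), both by the exact permutation test. A ratio that misses the threshold does not show that both genes changed alike: for Cd163 per Cd68 the SD was 0.42 in Control and 0.71 in HFpEF on the log2 scale. Single libraries weighed on these differences: that of Gpnmb per Cd68 was 0.18 without HFpEF replicate 3, 0.24 without Control replicate 4 and 0.57 without HFpEF replicate 1. Cd163 per Cd68 had no lower ratio in HFpEF without HFpEF replicate 3 (0.028), and the sizes without each other library in turn ran from -0.49 to -0.17. With 1 library left out, Ptprc per Cd68 ran from -0.35, without Control replicate 3, to -0.077, without Control replicate 4, and C1qb per C1qa from -0.15, without Control replicate 3, to -0.052, without Control replicate 1.

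**Figure D4:**
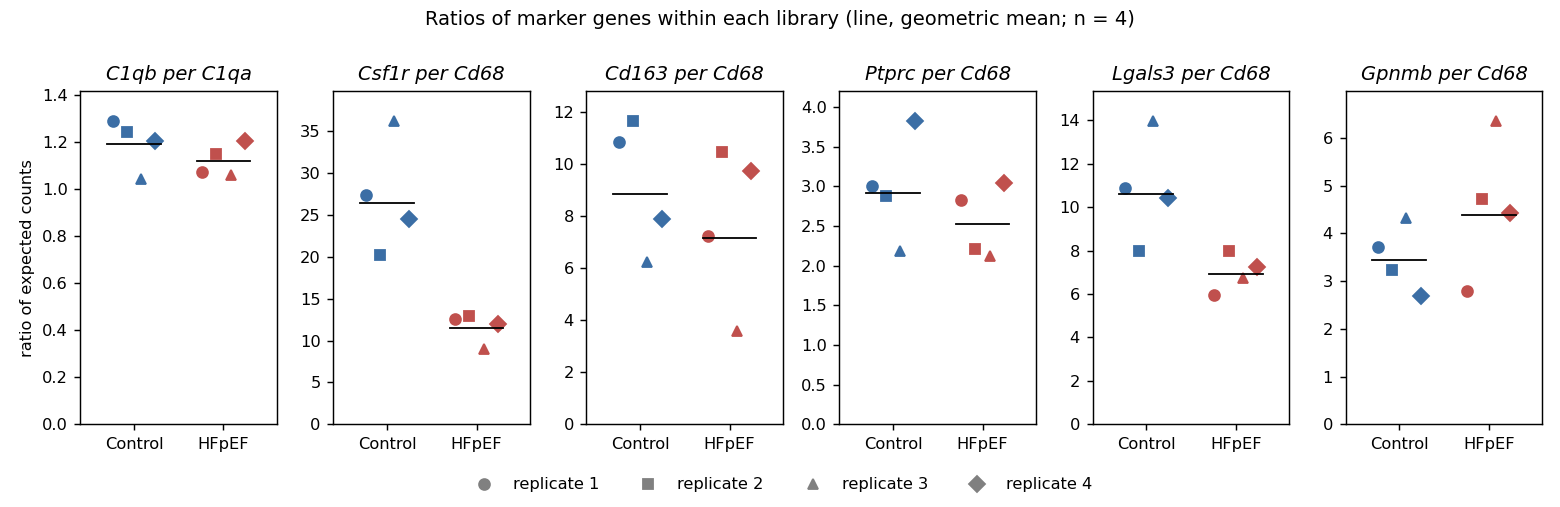
Ratio of the expected counts of pairs of marker genes within each library (vertical axis, linear from 0), for 4 Control (blue) and 4 HFpEF (red) libraries, with the replicate number as the symbol and the geometric mean as a line. Csf1r per Cd68 is 20.2 or more in Control and 12.9 or less in HFpEF, while C1qb per C1qa stays between 1.04 and 1.29 in all 8 libraries.

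Among the other tested genes, the closest to the mean profile of the 10 marker genes over the 8 libraries was ENSRNOG00000012160, with a root mean square difference of 0.11 in mean-centred log2 CPM, followed by ENSRNOG00000004192 at 0.14. Of the 10 marker genes themselves, Aif1 was nearest to that profile, at 0.15, and Gpnmb (0.54) and Csf1r (0.46) were farthest from it. ENSRNOG00000012160 rose by 1.00 on the log2 scale (edgeR adjusted p = 0.0480) and ENSRNOG00000004192 by 1.09 (edgeR adjusted p = 0.0370). The 3 next closest genes had fitted log2 fold changes of 0.95 to 1.26 and missed the threshold (edgeR adjusted p = 0.0505 to 0.0713). All 5 were found by their likeness over all 8 libraries, which includes the difference between the groups, and the table pairs none of them with a name.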

How the data were processed

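The values are expected counts per gene, which the authors deposited as 1 table of the series without normalization. RSEM divides reads that match more than 1 gene among those genes. The submitters' processing notes name Bowtie2 2.1.0, RSEM 1.2.15 and rn6; RNA was depleted of ribosomal RNA, per the labels' protocols. No source used here gives the annotation release or strand setting, so reads of overlapping and antisense genes may not have been told apart.

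Expected counts were rounded. Genes were kept by filterByExpr (16313 genes, 99.95% of counts), scaled by TMM and compared between HFpEF and Control (4 libraries each) with edgeR 4.0.16 in R 4.3.3 (quasi-likelihood test, robust = FALSE, two-sided, Benjamini-Hochberg over all tested genes, threshold 0.05), a procedure tested on simulated counts. Standard errors come from the F statistic. Also tried were limma-voom (limma 3.58.1), DESeq2 1.42.0, other scalings and filters, robust = TRUE, the replicate number as a block, and each library left out. Profiles used log2(CPM + 0.5). A count within 0.005 of a whole number was taken as whole. Intervals cover 95%.

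Names of the 10 genes come with the identifiers that define the set. The genes, lists and tests were chosen with earlier results of these data known. The named genes were to be all 10, up to 4 from each of 22 marker and pathway lists, and the 5 named genes most like the mean profile. The reference table carries no Ensembl identifiers, so these lists were not run, and of the 5 genes most like the profile, which have no names, 2 are printed by identifier.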

Additional observations from a re-analysis of the deposited data

Results flagged for a closer look

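In 34 sets of 4 values (each marker gene, each ratio and the summed level in each group), no library stood apart from the others of its group by Dixon's criterion (0 of 34), which in groups of 4 detects extreme cases and little else.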

How the results depend on the processing

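The number of marker genes higher in HFpEF was 3 under RLE and upper quartile scaling, both other filters on low counts and robust = TRUE, 5 with DESeq2, 1 with limma-voom (Cd68) and 0 to 3 when 1 library was left out. No gene of the 10 was called lower under any of the 16 alternatives, and all 10 fitted changes stayed above 0 in each. Over all tested genes, DESeq2 called 859 higher and 385 lower and limma-voom 186 higher and 37 lower, against 251 and 65 in the main fit. RLE and upper quartile scaling, both other filters and robust = TRUE gave 224 to 258 higher and 49 to 65 lower. Leaving out 1 library gave 21 to 234 higher and 0 to 98 lower. The 0 came without Control replicate 3, where edgeR gave 1014 lower genes an unadjusted p under 0.05. Cd163 per Cd68 turned from a log2 difference of -0.31 to 0.028 without HFpEF replicate 3; across libraries left out, it ran from -0.49 to 0.028. The cause was not tested for DESeq2 or limma-voom; leaving out a library also leaves fewer samples. The ratio of the summed levels was 1.71 from unscaled totals and 1.59 to 1.95 when 1 library was left out. The lowest counts behind a value were 38 for Aif1 and 66 for Cd68.

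Under the replicate block edgeR called 0 of the 10 genes (9 at an unadjusted p under 0.05; edgeR adjusted p = 0.0966 for Cd68, 0.105 for Gpnmb and 0.115 for Lgals3), and over all genes 6 higher and 0 lower, with 1510 and 1058 at an unadjusted p under 0.05. Nothing in the labels says that the numbers pair the libraries. Across 9713 genes, libraries with the same number deviated from their group means with correlations of -0.101, -0.0442, 0.0279 and -0.354. The best match of a library carried its own number in 0 of 8 cases. The numbers were not treated as pairs.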
